A study of Rattus norvegicus with 6 samples.

Results

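The brakes and starters of the G1 phase were examined in 3 populations of rat olfactory ensheathing cells (OECs) in culture, a glial cell type that wraps olfactory axons. They are 6 inhibitors of cyclin-dependent kinases (CDKs), Cdkn1a, Cdkn1b, Cdkn1c, Cdkn2a, Cdkn2b and Cdkn2c, and 4 cyclins, Ccnd1, Ccnd2, Ccnd3 and Ccne1. These 10 genes were chosen by name, and every probe set whose single annotated symbol is one of them was taken. That gave 18 of 8799 probe sets on Affymetrix U34A arrays and 15 of 31099 on RAE2.0 arrays. OEC Ep were primary cultures from the olfactory nerve layer of Wistar rats at postnatal day 21, harvested after 1 week and fewer than 3 population doublings, each culture from 1 rat. OEC Lp had the same source and age and had passed 50 doublings. The labels give a purity of over 90% for both at isolation. TEG3 is a clonal line, and so stands for 1 clone, derived from OECs of rats at postnatal day 60 by transfection with the large T antigen of SV40. The medium of all 3 was DMEM with serum (3%), forskolin, an activator of adenylyl cyclase, at 2 µM, and bovine pituitary extract at 20 µg/ml. Each population has 1 array of each type, and the labels do not say which RNA pool each array carried.

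In G1, D-type cyclins pair with CDK4 and CDK6 and start to phosphorylate the retinoblastoma protein, and cyclin E with CDK2 completes this step, which frees E2F factors to switch on genes of DNA replication. The INK4 inhibitors (Cdkn2a, Cdkn2b, Cdkn2c) bind CDK4 and CDK6, while the Cip/Kip inhibitors (Cdkn1a, Cdkn1b, Cdkn1c) bind cyclin-CDK complexes more widely. Cdkn2a also encodes ARF, from another first exon and reading frame, which acts on p53. Large T antigen binds the retinoblastoma family and p53, and so acts downstream of the D cyclins and the INK4 proteins.

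The values are MAS5 signals, which give the brightness of a probe set on a linear scale. The arrays of a type were brought to a common 2% trimmed mean, and for ratios the 40th percentile (128 on U34A, 168 on RAE2.0) served as a floor for lower signals. A ratio against a population at the floor is written "at least". Shares of probe sets above the floor ran from 59.1 to 61.8% over the 6 arrays. GAPDH probe sets at the 3' and 5' end, which report on RNA integrity, had a U34A signal ratio of 1.96 for OEC Ep, 1.52 for OEC Lp and 1.54 for TEG3, and 0.981 to 1.02 on the other type. The same ratio for beta-actin was 1.84, 1.42 and 1.28 on U34A, and 1.54 to 1.55 on RAE2.0. Ensheathing cell markers were high in OEC Ep alone: 9 of 10 tested fell in OEC Lp and 9 of 10 in TEG3 (limma). On RAE2.0 their summed signal was 107440 for OEC Ep, 5083 for OEC Lp and 4522 for TEG3, and Ngfr and S100b were at the floor in OEC Lp and TEG3. On U34A Ngfr was still 2569 and 3621 in these, against 12716 in OEC Ep. Microglia and macrophage markers summed to 65593, 5056 and 3117 in the same order on RAE2.0, with Aif1 and C1qb at the floor in OEC Lp and TEG3.

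All 15 RAE2.0 probe sets of the 10 genes and 16 of the 18 on U34A exceeded the floor on at least 1 array. The 2 that did not were a Cdkn1a and a Ccnd3 probe set on U34A. The filter thus removed none of the 10 genes, and 8 were on both types. Cdkn2a and Cdkn2c had probe sets on RAE2.0 only, where 1 array per population allows no test. Genes on both types were tested with limma over 3131 genes, with array type as a block, and p-values were adjusted over all of them.

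**Figure D1:**
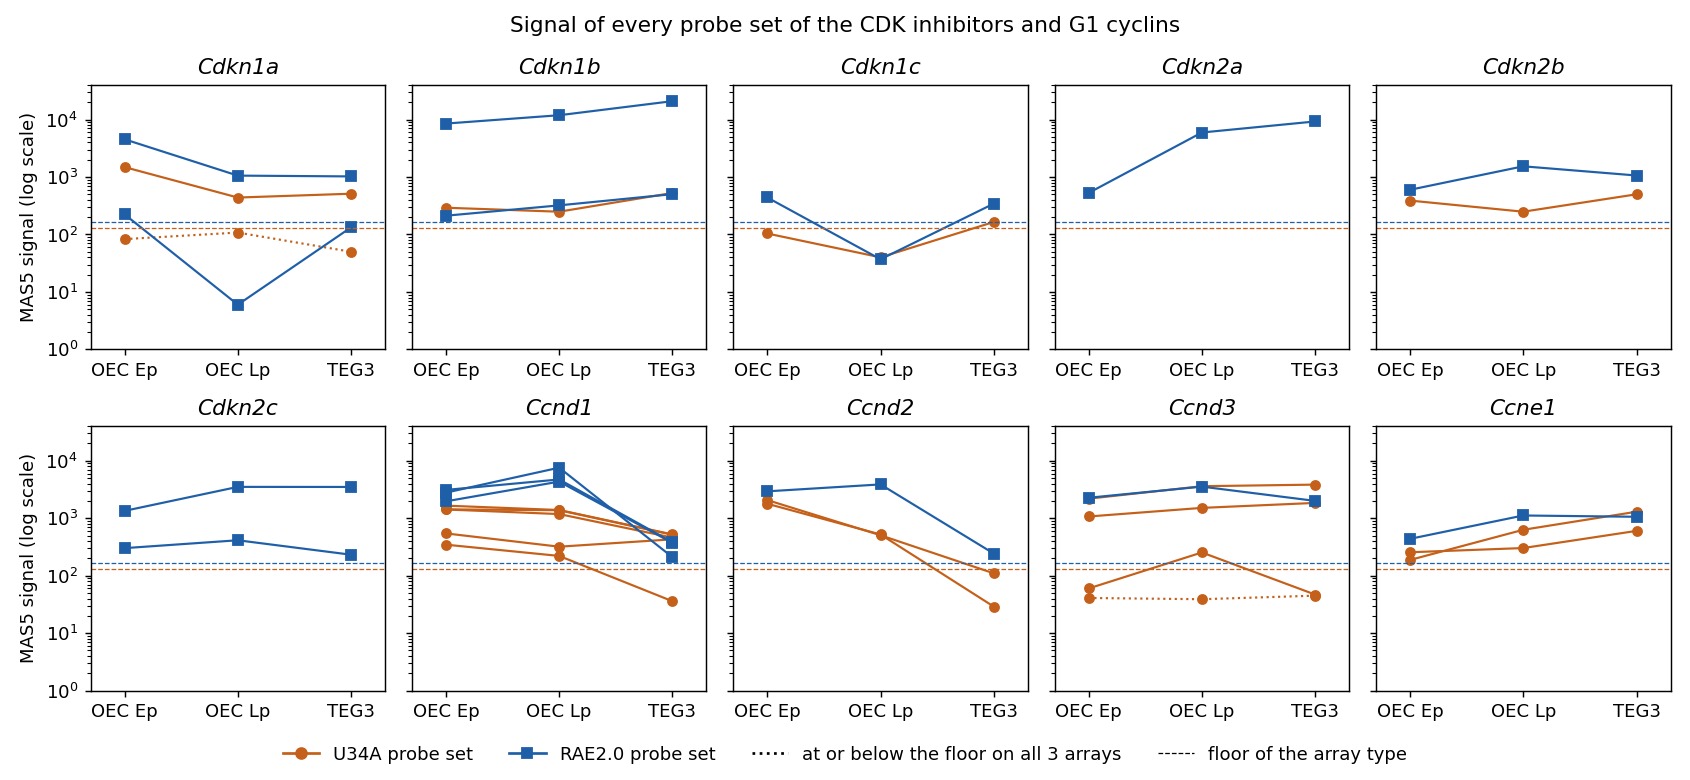
MAS5 signal (log axis) of each probe set of the 10 genes in OEC Ep, OEC Lp and TEG3, with 1 array per point, circles for U34A and squares for RAE2.0; lines join the points of 1 probe set, dotted where it never exceeded the floor, and dashed lines mark the floors. Every Ccnd1 and Ccnd2 probe set is lower in TEG3 than in OEC Ep, and Cdkn2a is at 528 in OEC Ep against 5948 and 9257 in the other two.

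Of the 8 genes tested, only Ccnd2, which encodes cyclin D2, passed in any comparison. Its U34A probe sets had signals of 1789 and 2073 in OEC Ep, 522 and 506 in OEC Lp and 29 and 110 in TEG3. On RAE2.0 its signal was 2940 for OEC Ep, 3880 for OEC Lp and 243 for TEG3. TEG3 was thus lowest on all 3 probe sets, and below the floor on both of U34A. Against OEC Ep, Ccnd2 fell in TEG3 by at least 15.0-fold on U34A and by 12.1-fold on RAE2.0. The fitted log2 fold, with the U34A value of TEG3 at the floor, was -3.75 ± 0.604 (SE, limma adjusted p = 0.0358, 2 arrays per population). Against OEC Lp, the log2 fold in TEG3 was -3.00 ± 0.604 and missed the threshold (adjusted p = 0.0926), with at least 4.0-fold on U34A and 16.0-fold on RAE2.0. The call against OEC Ep was lost without any one of the 6 arrays, where the adjusted p was between 0.0877 and 0.344. It was also lost without the block (adjusted p = 0.526), with no floor (0.0719), with no filter on dim probe sets (0.273) and with the 4 arrays of these populations alone (0.0877).

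OEC Lp and OEC Ep had no settled order for Ccnd2. On U34A both probe sets were lower in OEC Lp, with a log2 ratio of -1.91 for the gene, but on RAE2.0 it was slightly higher at 0.40. The fitted log2 fold was -0.75 ± 0.604 (adjusted p = 0.56).

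Ccnd1 encodes cyclin D1, the D cyclin most often tied to mitogen signals, and had the most probe sets. On RAE2.0 its 3 probe sets had signals of 1969, 3111 and 2789 in OEC Ep, 4344, 4733 and 7592 in OEC Lp and 373, 382 and 210 in TEG3. TEG3 was the lowest population on each of them, and OEC Lp the highest. On U34A the 5 probe sets had 347 to 1657 in OEC Ep, 221 to 1391 in OEC Lp and 36 to 523 in TEG3. There TEG3 was lower than OEC Ep on all 5, by 1.27-fold to 3.17-fold, and the order of OEC Lp and OEC Ep was the reverse of that on RAE2.0. The gene's ratio of OEC Ep to TEG3 was at least 2.48-fold on U34A and 8.30-fold on RAE2.0, and that of OEC Lp to TEG3 at least 1.88-fold and 17.3-fold.

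Since the types gave such different sizes, the fitted error of Ccnd1 was large. Its log2 fold in TEG3 was -2.18 ± 0.739 against OEC Ep (limma adjusted p = 0.175) and -2.51 ± 0.739 against OEC Lp (adjusted p = 0.207). Over the 8 probe sets, TEG3 was lower than OEC Ep on 8 and lower than OEC Lp on 7. Probe sets of a gene on 1 array share that array's RNA and are not replicates. For OEC Lp against OEC Ep, 3 probe sets were higher and 5 lower, split by array type, and the log2 fold was 0.33 ± 0.739 (adjusted p = 0.847).

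Ccnd3, which encodes cyclin D3, did not share the low level in TEG3. Its U34A probe sets with the highest signals had 1073 and 2191 in OEC Ep, 1515 and 3611 in OEC Lp and 1849 and 3848 in TEG3. Another probe set was above the floor in OEC Lp only, at 254. On RAE2.0 the signals were 2273, 3551 and 2004. That probe set passed the filter through OEC Lp alone, so its direction, at least 1.98-fold over OEC Ep, was fixed by the filter. On the other probe sets that passed, OEC Lp exceeded OEC Ep by 1.41-fold to 1.65-fold. The fit averages all of them. The log2 fold of OEC Lp against OEC Ep was 0.69 ± 0.332 (adjusted p = 0.337), and that of TEG3 was 0.18 ± 0.332 against OEC Ep (adjusted p = 0.808) and -0.51 ± 0.332 against OEC Lp (adjusted p = 0.546).

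Ccne1, which encodes cyclin E1, was lowest in OEC Ep on every probe set. Its U34A probe sets had 256 and 188 in OEC Ep, 303 and 630 in OEC Lp and 603 and 1299 in TEG3. On RAE2.0 the signals were 438, 1117 and 1061. TEG3 was above OEC Ep by 2.36-fold to 6.91-fold over the 3 probe sets, and OEC Lp by 1.18-fold to 3.35-fold. OEC Lp and TEG3 differed on U34A, with a log2 ratio of 1.02, and hardly on RAE2.0, with -0.07. Against OEC Ep the log2 fold was 1.64 ± 0.373 in TEG3 (limma adjusted p = 0.0797) and 1.17 ± 0.373 in OEC Lp (adjusted p = 0.167), and neither passed.

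**Figure D2:**
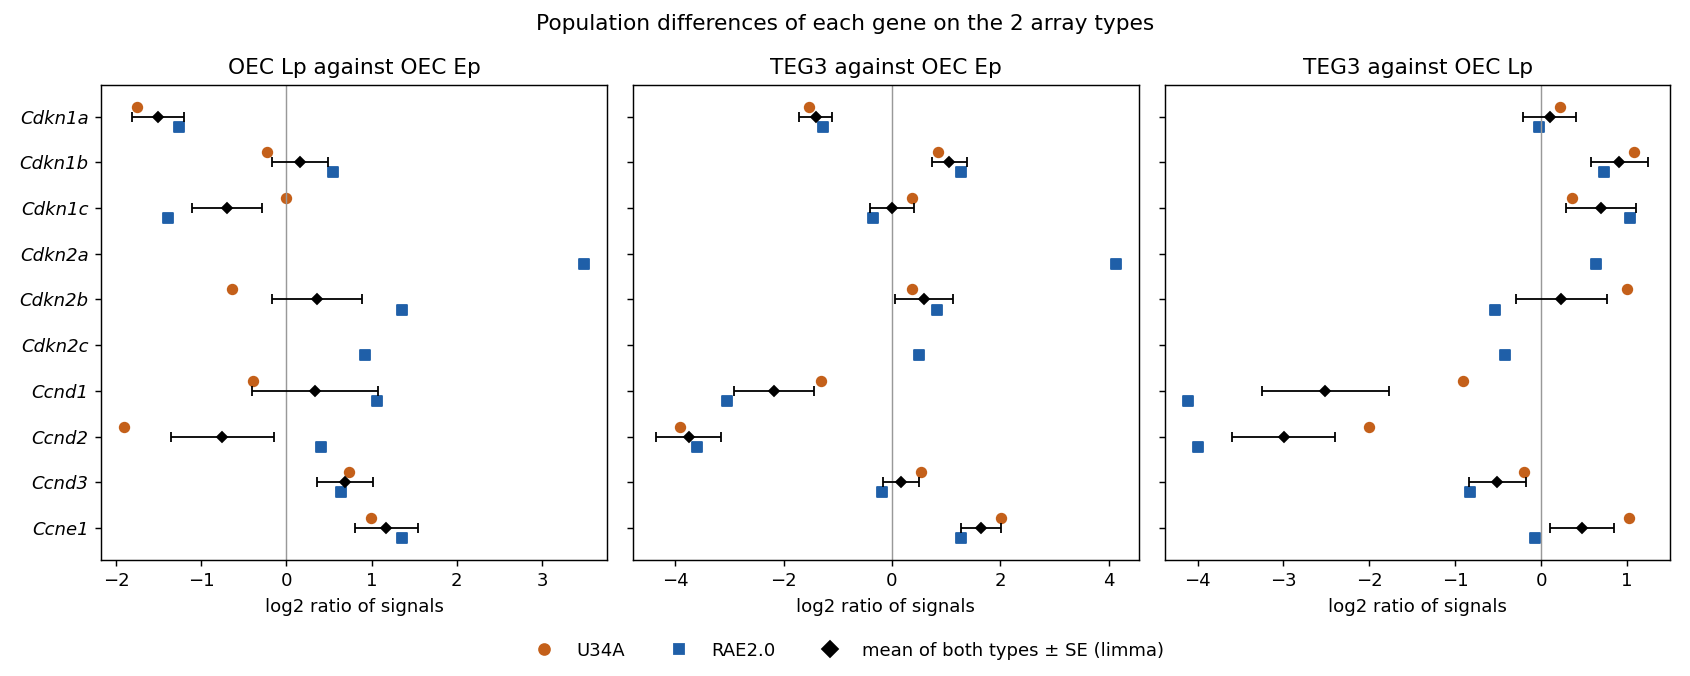
Log2 ratio of signals for each gene in the 3 comparisons on U34A (circles) and RAE2.0 (squares), with the limma mean of both types and its standard error (diamonds); Cdkn2a and Cdkn2c have RAE2.0 values only. Ccnd2 in TEG3 against OEC Ep lies at -3.91 on U34A and -3.60 on RAE2.0. The first is a bound set by the floor in TEG3, so how close the types lie is not known. For Ccnd1 in TEG3 against OEC Lp they lie far apart, at -0.91 (also a bound) and -4.12.

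Among the INK4 inhibitors, Cdkn2a ranged on RAE2.0 over 4.13 log2 units between populations, beside 4.12 for Ccnd1. Its single probe set, which by its name suffix can detect several transcripts of the gene and so may not separate p16INK4a from ARF, had signals of 528 for OEC Ep, 5948 for OEC Lp and 9257 for TEG3. Both other populations were far above OEC Ep, by 11.3-fold in OEC Lp and 17.5-fold in TEG3, and TEG3 was 1.56-fold above OEC Lp. There is no replicate for these values, and the gene was not on U34A. Cdkn2c, which encodes p18INK4c, had 1343, 3515 and 3504 on the brighter of its probe sets and 302, 414 and 232 on the dimmer. OEC Lp was higher than OEC Ep on both, by 2.62-fold and 1.37-fold. TEG3 was 2.61-fold above OEC Ep on the first and 1.30-fold below it on the second.

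Cdkn2b encodes p15INK4b, an inhibitor induced by TGF-beta, and lies next to Cdkn2a. On U34A it had 389 for OEC Ep, 249 for OEC Lp and 500 for TEG3, and on RAE2.0 the values were 599, 1535 and 1062. OEC Lp was the lowest population on U34A and the highest on RAE2.0. Against OEC Ep the log2 fold was 0.36 ± 0.53 in OEC Lp and 0.59 ± 0.53 in TEG3 (limma adjusted p = 0.765 and 0.565), and TEG3 differed from OEC Lp by 0.24 ± 0.53 (adjusted p = 0.891). Neither array type showed for Cdkn2b a ratio near that of its neighbour: the largest was 2.56-fold, for OEC Lp over OEC Ep on RAE2.0.

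The Cip/Kip inhibitors differed from each other in the order of the populations. Cdkn1a, which encodes p21 and is a main target of p53, was highest in OEC Ep on both types. Its U34A probe set had 1488 in OEC Ep, and 439 and 512 in OEC Lp and TEG3. On RAE2.0 the brighter probe set had 4534, 1057 and 1024, and the dimmer 224, 6 and 133, of which only OEC Ep was above the floor. OEC Lp and TEG3 thus lay close together, at 2.91-fold to 4.43-fold below OEC Ep on the probe sets above the floor throughout. With the dim probe set averaged in at the floor, the fitted log2 fold was -1.51 ± 0.307 for OEC Lp (limma adjusted p = 0.0529) and -1.41 ± 0.307 for TEG3 (adjusted p = 0.0731) against OEC Ep, both short of the threshold. With the probe set of highest mean signal in place of the mean of probe sets, both passed, with -1.93 (adjusted p = 0.0307) and -1.84 (adjusted p = 0.0403), and with quantile normalization OEC Lp passed (adjusted p = 0.0473). The difference of TEG3 and OEC Lp was 0.10 ± 0.307 (adjusted p = 0.924). The markers of microglia and macrophages and of ensheathing cells were also highest in OEC Ep (summed macrophage signal of 26603, 1356 and 1430 on U34A). Ccnd2 was highest in OEC Ep on U34A only, and on RAE2.0 it had 2940 there and 3880 in OEC Lp. The part of these markers in the Cdkn1a and Ccnd2 values was not tested. In bulk RNA, fewer cells with a transcript and less of it per cell cannot be told apart.

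Cdkn1b, which encodes p27, was highest in TEG3 on all 3 probe sets. In the same order of populations the signals were 292, 249 and 528 on U34A, and 212, 321 and 503 and 8506, 11882 and 20881 on RAE2.0. TEG3 was above OEC Ep by 1.81-fold to 2.45-fold and above OEC Lp by 1.57-fold to 2.12-fold. The log2 fold of 1.06 ± 0.331 against OEC Ep and of 0.91 ± 0.331 against OEC Lp did not pass (limma adjusted p = 0.15 and 0.276). OEC Lp and OEC Ep differed by 0.16 ± 0.331 (adjusted p = 0.837). Cdkn1c, which encodes p57 and is imprinted, was dim: on U34A only TEG3, at 165, was above the floor, and on RAE2.0 the signals were 440, 37 and 344. OEC Lp was lowest on both types before the floor, at 40 on U34A. Its log2 folds ran from -0.69 to 0.70 over the 3 comparisons, and the lowest adjusted p was 0.444.

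Upstream sequences are shown for Ccne1, Cdkn1b, Cdkn2c, Cdkn2a and Cdkn2b, since each was lowest in OEC Ep on its brightest RAE2.0 probe set. Cdkn1b and Cdkn2b were not so on U34A. They are the 250 bases before a RefSeq start of each gene in build GRCr8, 5′ to 3′ on the gene's strand, at chr1:99927910-99928159, chr4:169491254-169491503, chr5:129644892-129645141, chr5:109107957-109108206 and chr5:109134856-109135105 in the order named. Cdkn1b lies on the plus strand and the others on the minus strand. Of the 10 genes 7 were in the table. Capitals mark GC boxes (GGGCGG or its reverse complement) and the cAMP response element (TGACGTCA).
Ccne1: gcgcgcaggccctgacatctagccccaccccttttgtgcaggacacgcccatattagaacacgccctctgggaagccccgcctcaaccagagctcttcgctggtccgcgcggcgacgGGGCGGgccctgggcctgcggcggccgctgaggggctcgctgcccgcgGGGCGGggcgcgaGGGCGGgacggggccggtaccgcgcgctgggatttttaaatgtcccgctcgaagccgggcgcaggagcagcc
Cdkn1b: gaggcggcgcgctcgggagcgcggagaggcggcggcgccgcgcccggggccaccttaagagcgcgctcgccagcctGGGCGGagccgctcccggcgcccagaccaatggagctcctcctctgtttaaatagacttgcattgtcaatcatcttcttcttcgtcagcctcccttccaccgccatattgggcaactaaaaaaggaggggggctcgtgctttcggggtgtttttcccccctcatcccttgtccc
Cdkn2c: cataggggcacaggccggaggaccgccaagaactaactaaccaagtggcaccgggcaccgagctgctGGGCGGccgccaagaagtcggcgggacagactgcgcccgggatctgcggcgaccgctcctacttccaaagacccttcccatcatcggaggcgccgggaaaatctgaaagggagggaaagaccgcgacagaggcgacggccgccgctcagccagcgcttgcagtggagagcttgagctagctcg
Cdkn2a: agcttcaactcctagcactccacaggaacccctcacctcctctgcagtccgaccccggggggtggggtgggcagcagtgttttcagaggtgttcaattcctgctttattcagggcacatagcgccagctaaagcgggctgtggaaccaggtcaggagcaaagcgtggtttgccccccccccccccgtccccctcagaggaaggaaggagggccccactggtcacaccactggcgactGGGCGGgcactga
Cdkn2b: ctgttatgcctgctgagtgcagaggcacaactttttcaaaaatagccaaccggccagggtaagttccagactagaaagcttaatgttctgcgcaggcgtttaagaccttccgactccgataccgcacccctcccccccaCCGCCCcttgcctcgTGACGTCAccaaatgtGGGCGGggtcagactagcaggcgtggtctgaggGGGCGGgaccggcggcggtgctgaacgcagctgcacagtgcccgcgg
GC boxes numbered 3 in Ccne1, 1 in Cdkn1b, 1 in Cdkn2c, 1 in Cdkn2a and 3 in Cdkn2b, and 30.5% of all 33469 windows of this length hold one on either strand. Cdkn2b has the cAMP response element, 96 to 89 bases before the start, which 1.59% of windows hold. The E2F motif TTTNNCGC, searched on both strands and held by 4.11% of windows, had no match in the 7 windows. No match overlapped one of another motif. A match is a description of letters and not of binding.

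Read against all genes, the counts of called members were small. In OEC Lp against OEC Ep 0 of 8 were called (2 at an unadjusted p under 0.05) where 6.13% of all genes were. In TEG3 against OEC Ep 1 of 8 was called (5 unadjusted) where 4.34% of all genes were, and in TEG3 against OEC Lp 0 of 8 (3 unadjusted) where 1.21% were. In the same order, the unadjusted shares over all genes were 19.5%, 21.7% and 15.4%. The 3 comparisons share arrays and are not independent. The array types gave the same sign for 3 of 8 members in OEC Lp against OEC Ep, 6 of 8 in TEG3 against OEC Ep and 5 of 8 in TEG3 against OEC Lp, where 62.4%, 64.5% and 57.0% of the 3131 genes had the same sign. The median gap between the types' log2 ratios was 1.08, 0.59 and 0.88 for the members and 0.56, 0.55 and 0.56 for all genes.

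Counts of at least 2-fold ratios on 1 type have no replicate check. On RAE2.0, 4 of 10 members were at least 2-fold higher in OEC Lp when set against OEC Ep (Cdkn2a, Cdkn2b, Ccnd1, Ccne1) and 2 lower (Cdkn1a, Cdkn1c), where 10.4% of all genes were higher and 10.4% lower. In TEG3 against OEC Ep 3 were higher (Cdkn1b, Cdkn2a, Ccne1) and 3 lower (Cdkn1a, Ccnd1, Ccnd2), with 12.1% and 10.6% of all genes. In TEG3 against OEC Lp 1 was higher (Cdkn1c) and 2 lower (Ccnd1, Ccnd2), with 9.63% and 8.66%. On U34A the counts among 8 were 0 higher and 2 lower, against 11.0% and 10.1% of all genes, for the late-passage over the early-passage cells. They were 1 and 3, against 10.5% and 12.9%, for TEG3 over OEC Ep, and 3 and 1, against 8.08% and 11.6%, for TEG3 over OEC Lp. The members' median log2 ratio on RAE2.0 was 0.78, 0.16 and -0.25 in the 3 comparisons, against 0.10, 0.11 and 0.00 for all genes.

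The kinases that the members bind were compared next. Cdk4, a partner of the D cyclins, had U34A signals of 1851, 5674 and 9467 for OEC Ep, OEC Lp and TEG3, and RAE2.0 signals of 11635, 10909 and 18397. TEG3 was the highest on both, and its log2 fold against OEC Ep was 1.51 ± 0.507 (limma adjusted p = 0.173). Cdk2, the partner of cyclin E, was above the floor on U34A in TEG3 only, at 371, and had 1207, 1041 and 2366 on RAE2.0 (1.36 ± 0.312 for TEG3 against OEC Lp, adjusted p = 0.126). The phosphatase Cdc25b and the mitotic cyclin Ccnb1 had log2 folds of 1.34 and 2.04 for TEG3 against OEC Ep (adjusted p = 0.0859 and 0.159). Of 8 kinases, cyclins and their regulators on both types, 0 were called in any comparison (6.13%, 4.34% and 1.21% of all genes). Their median log2 fold was 0.37 in OEC Lp and 1.29 in TEG3 against OEC Ep, beside 0.11 and 0.04 for all genes. For OEC Lp against OEC Ep the types differed. The median log2 ratio was 1.13 on U34A, with 5 of 8 at least 2-fold higher and 0 lower (11.0% and 10.1% of all genes). On RAE2.0 it was -0.21, with 2 of 20 higher and 3 lower (10.4% and 10.4%). On RAE2.0 alone, 8 of 20 were at least 2-fold higher in TEG3 than in OEC Lp and 0 lower (9.63% and 8.66%). Of these 8, the inhibitory kinase Pkmyt1 had 786 in TEG3 and was at the floor in OEC Lp, and Cks2, a CDK-binding subunit, had 10822 against 3120. Mnat1, of the CDK-activating kinase, had 1521, 4030 and 5076, and so was low in OEC Ep.

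E2F target genes, which act downstream of the members, were compared as a list. Mcm7, a subunit of the replicative helicase, had 1145, 3002 and 8948 on U34A and 3478, 4483 and 20105 on RAE2.0. It rose 6.72-fold in TEG3 against OEC Ep (log2 fold 2.75 ± 0.361, limma adjusted p = 0.0205). Prim1, a primase subunit, rose 5.35-fold (2.42 ± 0.401, adjusted p = 0.0385). These were 2 of 8 E2F target genes on both types (4.34% of all genes were called), with a median of 1.90, and none fell. On RAE2.0 alone, 14 of 14 were at least 2-fold higher in TEG3 than in OEC Ep (12.1% of all genes) and 13 of 14 than in OEC Lp (9.63%). Between OEC Lp and OEC Ep 0 of 14 differed 2-fold (10.4% of all genes higher and 10.4% lower). On U34A, in contrast, 4 of 8 were at least 2-fold higher in OEC Lp (11.0% of all genes), with a median log2 ratio of 1.12. On RAE2.0, Cdt1, which loads the helicase, had 785, 1222 and 7034. Mcm2 and Mcm3, further helicase subunits, had RAE2.0 signals of 7021 and 6534 in TEG3 and 941 and 935 in OEC Ep.

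Of the mitosis genes on RAE2.0, 12 of 15 were at least 2-fold higher in TEG3 than in OEC Ep (12.1% of all genes) and 13 of 15 than in OEC Lp (9.63%). None of 7 on both types passed (lowest adjusted p = 0.12, for Top2a, a DNA topoisomerase). Between the primary cultures the types differed: 4 of 7 on U34A were at least 2-fold higher in OEC Lp (11.0% of all genes), against 0 of 15 on RAE2.0 (10.4%). Among pocket proteins and E2F factors, 6 of the 12 on RAE2.0 had signals at least 2-fold higher in TEG3 than in OEC Ep and 0 lower (12.1% and 10.6% of all genes). Rbl1, which encodes p107, had 1385, 761 and 4298, and the repressors E2f7 and E2f8 had 1113 and 1094 in TEG3 and 299 each in OEC Ep. Rbl2 and E2f5, the 2 on both types, were not called. Against OEC Ep, the low Ccnd1 and Ccnd2 of TEG3 thus stood beside higher signals of Ccne1, Cdk4, Cdk2 and the E2F targets. These are values side by side, and Ccnd1, Ccne1, Cdk4 and Cdk2 passed in no comparison. Against OEC Lp, Ccne1 hardly differed on RAE2.0, with 1061 in TEG3 and 1117 in OEC Lp.

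**Figure D3:**
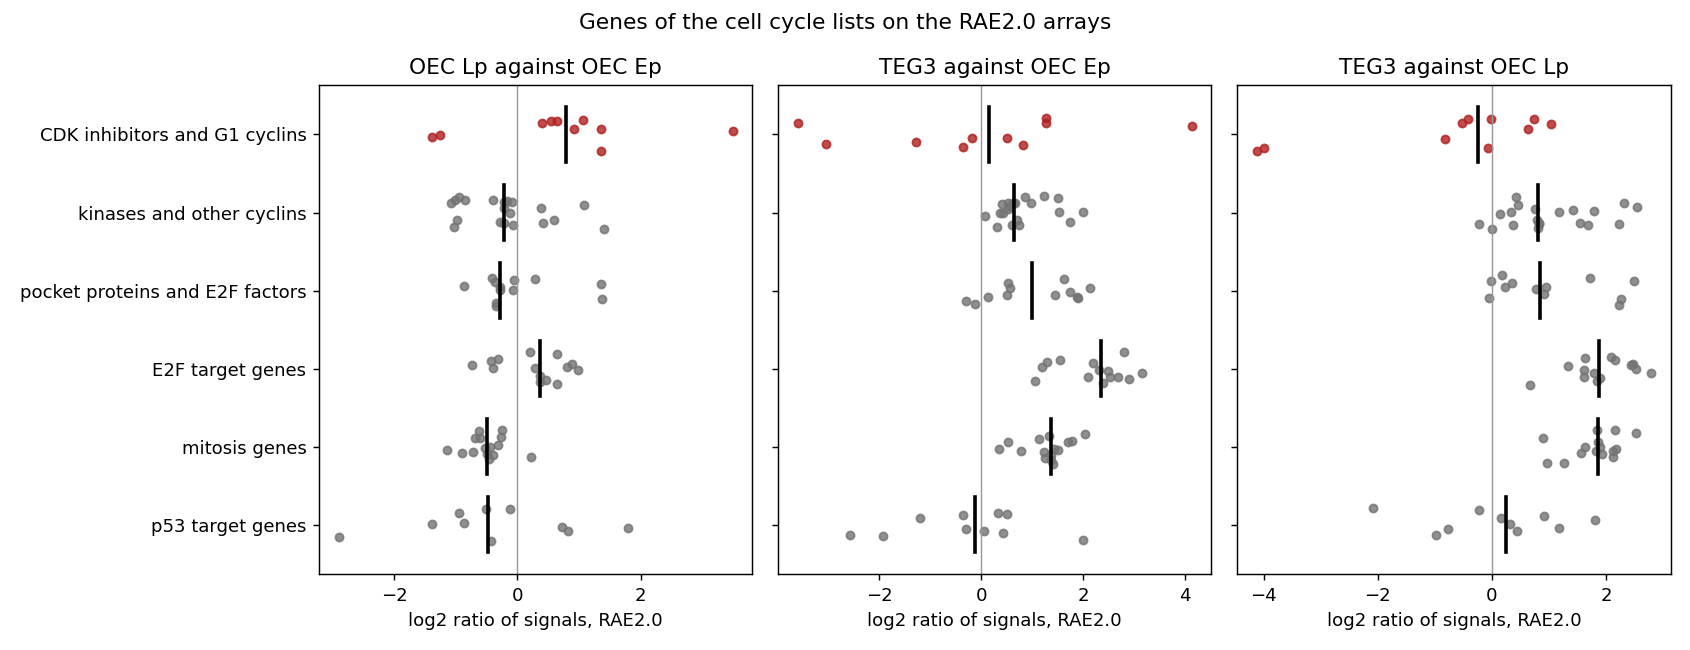
Log2 ratio on RAE2.0 of each gene of the named cell cycle lists in the 3 comparisons, with 1 point per gene, 1 array per population and a bar at the list's median. The CDK inhibitors and G1 cyclins (red) spread to both sides in each comparison, while all 14 E2F target genes lie at 1 or above in TEG3 against OEC Ep.

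Regulators of the members' transcription were mixed. In OEC Lp against OEC Ep 1 of 17 was called higher and 2 lower, where 6.13% of all genes were called in either direction. In TEG3 against OEC Ep 1 of 17 was called higher, where 4.34% of all genes were called. Klf4, a zinc finger factor that can activate Cdkn1a, rose in OEC Lp (fitted log2 fold 2.53 ± 0.448, limma adjusted p = 0.0349) and in TEG3 (2.70 ± 0.448, adjusted p = 0.0385), with part of its U34A signal in OEC Ep at the floor. Ets1, a factor known to activate Cdkn2a, fell by 1.70 on the log2 scale in OEC Lp (adjusted p = 0.0384). Atf3, a stress factor that represses or activates its targets by context, fell by 2.70 (adjusted p = 0.0265). On RAE2.0 alone, Ezh2, a Polycomb enzyme that can silence Cdkn2a, had 1593, 1214 and 4198, so that TEG3 was highest there. Of 5 p53 target genes on both types, Ephx1, an epoxide hydrolase, rose in OEC Lp (2.40 ± 0.386, adjusted p = 0.0261) and 0 were called lower in any comparison. Their median log2 fold was -0.41 in OEC Lp and -0.83 in TEG3 against OEC Ep. On U34A alone the median was 0.58 and -0.49, so the types did not settle a direction for OEC Lp. On RAE2.0 alone 2 and 3 of 10 were at least 2-fold lower, where 10.4% and 10.6% of all genes were. In each of these comparisons 1 of 10 was at least 2-fold higher, where 10.4% and 12.1% of all genes were. Ccng1, which encodes cyclin G1 and is named here after its values were seen, had RAE2.0 signals of 15693, 2106 and 2637 but U34A signals of 4423, 6976 and 3141. On RAE2.0 Phlda3 had 3066, 1586 and 807, and Sesn2 361, 639 and 1435. Of the genes listed for the turnover of p27 and G1 cyclins, 1 of 12 on RAE2.0 was at least 2-fold apart between OEC Lp and OEC Ep. Of all genes, 10.4% were higher and 10.4% lower by that measure. The 1 gene was Fbxo31, a ligase subunit for cyclin D1, with 564, 1605 and 1404. Cand1 and Gsk3b, the 2 on both types, were not called.

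The genes most like Ccnd2 over the 6 arrays, by Euclidean distance of log2 signals centred within array type among 3130 other genes, were Ptn (0.956), Jag1 (1.23), Cd48 (1.59), Maf (1.61) and Lbh (1.63). Ptn, the growth factor pleiotrophin, had 5790, 1402 and 350 on U34A and 4673, 2447 and 266 on RAE2.0. Jag1, a Notch ligand, had 916 and 227 in OEC Ep and OEC Lp and lay at the floor in TEG3 on U34A, and 5137, 3089 and 250 on RAE2.0. For Cdkn2a, with 3 RAE2.0 arrays only, they were Trib3 (0.629), Smpdl3b (0.815), Gypc (0.82), Tpbg (0.911) and Macroh2a2 (0.947). Trib3, a stress-induced pseudokinase, had 331, 2059 and 4976 there. It is on U34A too, where its order differed: 305, 142 and 314. Macroh2a2, a histone variant, was at the floor in OEC Ep and had 883 in OEC Lp and 1271 in TEG3. With 3 values, the distance describes only the shape of the signals on these arrays.

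On RAE2.0, fibroblast and meningeal markers summed to 168435 (OEC Ep), 202674 (OEC Lp) and 67147 (TEG3), the same order of populations as Ccnd1 and Ccnd2 there, and to 84389, 84231 and 43395 on U34A. The list went both ways: for OEC Lp against OEC Ep on RAE2.0, 4 of 11 were at least 2-fold higher and 4 lower (10.4% and 10.4% of all genes). Their part in the Ccnd1 and Ccnd2 values was not tested.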

How the data were processed

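Total RNA of 3 populations was hybridised to 3 U34A and 3 RAE2.0 arrays. The deposited values are linear signal intensities that the authors made with MAS5 (Microarray Suite version 5.0), per the labels and design text, which says that 2 RNA pools of 3 cultures were made per population, names U34A arrays only and mentions a filter of probe sets without its setting. Detection calls were not used. Control probe sets (59 and 57) were left out; the 40th percentile was taken over all probe sets. Probe sets had to exceed it on 1 of 3 arrays, and the probe sets left with a single annotated symbol were averaged per gene on the log2 scale. This gave 3726 genes on U34A, 11542 on RAE2.0 and 3131 on both.

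limma 3.58.1 in R 4.3.3 was fitted with population and array type on all 6 arrays (2 residual and 3.56 prior degrees of freedom), with Benjamini-Hochberg adjustment at 0.05. Array type, given by the labels, serves as replicate block. The residual is thus the disagreement of types, and p-values may measure technical spread. The procedure was tested on simulated data with independent normal errors, drawn from the spread that limma fitted, and no floor. Such data follow limma's own model, so the test cannot show how the procedure does on these signals. The number of arrays limits the precision. Members and gene lists were chosen with earlier results of these data known. All members are named, and of each list the called genes, otherwise up to 4 of lowest p and 3 of largest ratio on 1 type, from which examples are given; like genes are the 5 nearest. Promoters are RefSeq's.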

Additional observations from a re-analysis of the deposited data

How the results depend on the processing

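Each choice was changed alone. Of 210 values of the members' log2 folds under other processing, 203 kept their direction and side of the threshold. The call was lost by 4 (all Ccnd2 in TEG3 against OEC Ep), 3 gained one (Cdkn1a) and 0 reversed. Part of this was fixed by design. The log2 fold cannot change with the 4 arrays compared alone, without the replicate block, or with only genes above the floor on each array. Since only 1 fold was called at first, these counts do not measure how stable the values are. The counts of all genes called were 192, 136 and 38 for Lp over Ep, TEG3 over Ep and TEG3 over Lp. They became 66, 11 and 0 with no floor, 1, 1 and 0 with no filter on dim probe sets, 41, 0 and 0 with the 4 arrays compared alone, and 0, 0 and 0 when the replicate block was dropped (193, 172 and 110 at an unadjusted p under 0.05, limma). The first was 74 when only genes that exceeded the floor on each of the 6 arrays were kept, and the last 4 with a floor at the 20th percentile. With 1 array left out the counts ran from 0 to 41, 0 to 0 and 0 to 0 (409 to 529, 412 to 623 and 318 to 375 unadjusted); a population with 1 array left takes its spread from the rest. Members called were 0, 1 and 0. The second was 0 with no floor, no filter, the 4 arrays alone, no replicate block, or 1 array left out (0 to 0), and 0 when genes had to exceed the floor on each array, which leaves Ccnd2 out. It was 2 with the brightest probe set, which gave 1 for OEC Lp against OEC Ep, as did quantile normalization. The causes were not tested.

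Of 144 log2 folds with 1 array left out, 14 reversed, none of them a fold called in the main fit. The 144 include folds that could not reverse. Leaving out an array of the population outside a comparison does not change its log2 fold. In OEC Lp against OEC Ep, Ccnd2 ran from -1.83 to 0.32 (above 0 without OEC Lp on U34A), Ccnd1 from -0.83 (without OEC Lp on RAE2.0) to 1.5, Cdkn1b from -0.14 to 0.45 and Cdkn2b from -0.53 to 1.24, both below 0 without OEC Ep or OEC Lp on RAE2.0. In TEG3 against OEC Ep, Cdkn1c ran from -0.52 to 0.53 and Ccnd3 from -0.16 to 0.51, both below 0 without OEC Ep or TEG3 on U34A, and Cdkn2b from -0.022 (without OEC Ep on RAE2.0) to 1.21. In TEG3 against OEC Lp, Cdkn1a ran from -0.088 (without OEC Lp on U34A) to 0.29 and Cdkn2b from -0.65 to 1.12, below 0 without OEC Lp or TEG3 on U34A. Of 36 ratios of Cdkn2a and Cdkn2c on RAE2.0, 35 moved by at most 1.5-fold. Cdkn2c in TEG3 against OEC Ep went from 0.50 to 1.38 (log2) with its brightest probe set. Most of these ratios could not move. The probe sets of both genes were above the floor throughout, so changes of floor and filter left them as they were. Cdkn2a has 1 probe set, so the choice of probe set did too. The count thus does not replace a replicate. Signals near the floor limit Cdkn1c and the dim probe sets of Cdkn1a and Ccnd3.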
